A study of Xenopus laevis with 6 samples.

Results

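Genes of pre-mRNA splicing and of hnRNP, cirbp and rbm RNA-binding proteins were examined in dorsal gastrula tissue of the frog Xenopus laevis after Apcdd1 depletion. The members were all probe sets of the array with exactly 1 platform gene symbol that begins with hnrnp, srsf, snrp, sf3a, sf3b, u2af, prpf, rbm followed by a digit or x, cirbp, ptbp, tra2 or rbfox. This rule uses names and no measured values, though it was set with earlier results of these data known. It found 194 of the 32634 probe sets of the array. They stand for 118 of the 11302 genes that have a probe set with 1 symbol, or for 88 names when the L and S homeologs of this allotetraploid species are counted as one. A further 4 probe sets carried 2 symbols each and were set aside, and none of them was called. No probe set was named rbm3, the other well-known cold-inducible gene of this kind.

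A morpholino oligonucleotide (MO) is a chemically modified antisense oligomer used to stop a chosen RNA from being translated or spliced. One set of embryos received an MO against apcdd1, whose membrane protein is known to dampen Wnt and BMP signalling, and the other set received a control MO. Both MOs were given at 10 ng into each of the 2 dorsal blastomeres at the 4-cell stage. Embryos of both groups were then kept at 16 degrees C to stage 10.5, when the blastopore lip is forming, and the dorsal part was cut off for RNA. Each group had 3 arrays, each from a batch of 10 embryos, and whether the batches came from separate clutches is not stated, so p-values reflect only how these batches varied, which may be technical. The groups follow the genotype label, since the treatment text of the control samples also names the apcdd1 MO. The depleted embryos alone were stained ventrally with a dye, because some of them formed the dorsal lip late. Neither this handling nor the late lip formation can be told apart from the depletion.

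Splicing removes introns from new transcripts. Small nuclear ribonucleoproteins (snRNPs) with their Sm proteins, the SF3 complexes, U2AF and the PRPF proteins build the spliceosome. SR proteins mostly favour the use of an exon to which they bind, while hnRNPs and PTBP often oppose it, so the balance between them can set which exons are kept. Many transcripts of this machinery are supplied by the egg, and several of its genes, SR protein genes among them, are known in mammals to make alternative transcripts that are degraded. A probe set reads a short stretch of the transcript, mostly near its end, so probe sets of one gene can read different transcripts or different ends.

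Across the whole array, the median signal per array lay between 44.8 and 46.2. Signals of the tested probe sets correlated with r between 0.993 and 0.996 among apcdd1 MO arrays, between 0.987 and 0.995 among control MO arrays, and between 0.983 and 0.988 across the groups. The 3' to 5' signal ratio of gapdh, a sign of RNA integrity, was 1.81, 1.84 and 1.95 on the apcdd1 MO arrays and 1.75, 1.81 and 1.75 on the control MO arrays, higher in depleted embryos without overlap. The same ratio of ef1a was 1.09 to 1.33 against 1.08 to 1.26, with overlap. That of actin went the other way, at 393 to 418 against 440 to 455 without overlap, though its 5' probe set was dim, with signals from 6.27 to 6.91 over all 6 arrays. The mean log2 signal of the bacterial and phage hybridization controls was 10.64 to 10.83 on the apcdd1 MO arrays and 10.34 to 10.63 on the control MO arrays, higher in depleted embryos without overlap. The targeted apcdd1.L had signals of 229, 252 and 258 on the apcdd1 MO arrays against 314, 300 and 310 on the control MO arrays. It was lower in 3 of 3 depleted arrays (log2 change -0.33 ± 0.07 SE, limma adjusted p = 0.0273), though an MO acts on translation or splicing and this level does not measure the depletion.

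Of the 194 member probe sets, 179 in 112 genes were bright enough to test, and 15 were left out as dim, with mean signals from 4.99 to 22.2. The test was limma's moderated test on log2 signals, adjusted over all 19484 tested probe sets, and a probe set was called when its adjusted p was under 0.05. Among members 4 were called higher in apcdd1 MO embryos, 7 were called lower and 168 were not called. The called share was 6.15% of the members, beside 6.62% of all tested probe sets, of which 3.00% were higher and 3.61% lower. The members' median log2 change was -0.01 and that of all tested probe sets was 0.00, so the share called and the median were near those of the array. In 13 member probe sets all apcdd1 MO arrays lay above all control MO arrays, and in 27 all lay below. These add up to 22.3% of the members, beside 24.7% of all tested probe sets, with 11.9% above and 12.8% below. At an unadjusted p under 0.05 there were 31 members, 22 of them lower. The share of all tested probe sets at that level was not counted, so no excess among members can be read from these counts. Of the 168 uncalled members, 160 had a 95% interval inside a 1.5-fold change in either direction and 122 inside a 1.25-fold change. Without control MO 2 the members called were 2 higher and 3 lower (2.79%, beside 3.43% of all tested probe sets). Those called lower were 3 without apcdd1 MO 3 and 4 without apcdd1 MO 1. The share of members called in either direction was then 3.35% and 3.91%, beside 3.79% and 4.83% of all tested probe sets. None of the 15 dim probe sets was called by limma when all probe sets were fitted, where the lowest adjusted p was 0.26 and 2 had an unadjusted p under 0.05.

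**Figure D1:**
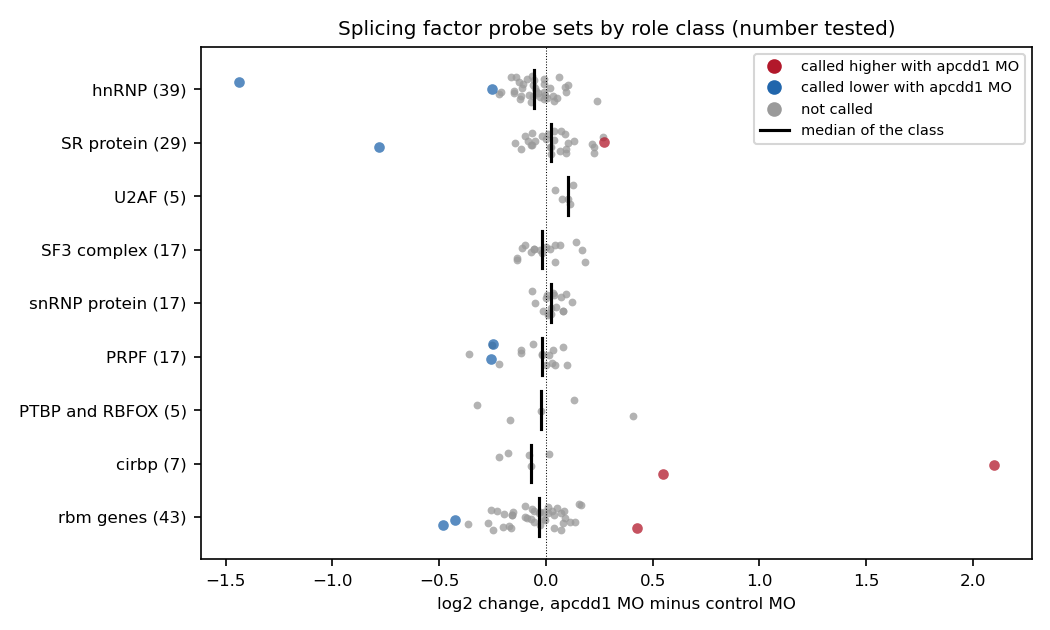
Log2 change (apcdd1 MO minus control MO, horizontal axis) of the 179 tested member probe sets, 1 point each, in 9 role classes named with the number tested. Coloured points passed an adjusted p of 0.05 in limma, black bars are class medians, and the vertical jitter has no meaning. Most points lie near 0, the hnRNP median is -0.06 and that of U2AF 0.10, and the cirbp.L point at 2.1 and the hnrnpu.L point at -1.44 stand far from the rest.

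The largest change among the members was in cirbp, which encodes a glycine-rich RNA-binding protein induced by cold and, in Xenopus embryos, studied in brain and kidney formation and in cell movement. The dimmer probe set of cirbp.L (Xl2.4515.1.S2_at) had signals of 335, 455 and 295 on the apcdd1 MO arrays against 71.7, 82.9 and 95.9 on the control MO arrays. All depleted arrays lay far above all control arrays, and apcdd1 MO 2 was the highest. The change was 4.29-fold (log2 change 2.1 ± 0.17 SE, limma adjusted p = 0.00023). The bright probe set of the same gene (Xl2.4515.1.S1_at) read 7594, 8141 and 8145 in apcdd1 MO embryos and 8375, 8665 and 8140 in control MO embryos. These values overlapped and the change did not pass (log2 change -0.08, 95% interval -0.17 to 0.02, limma adjusted p = 0.393).

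The homeolog cirbp.S was read by 5 probe sets, which did not go the same way. Xl2.8151.1.S2_at, one of the dimmer ones, had signals of 249, 306 and 262 on the apcdd1 MO arrays against 174, 205 and 178 on the control MO arrays. Every depleted array lay above all control arrays (log2 change 0.55 ± 0.10 SE, limma adjusted p = 0.0096). The brightest, Xl2.8151.1.S1_x_at, read 4748, 5542 and 5257 in apcdd1 MO embryos against 6043, 6081 and 5928 in control MO embryos. Here all depleted arrays lay below, but the change just missed the threshold (log2 change -0.22 ± 0.06 SE, limma adjusted p = 0.0512). The other bright one, Xl2.8151.3.S1_x_at, had 4519, 4984 and 4785 against 5595, 5282 and 5267 (log2 change -0.18 ± 0.05 SE, limma adjusted p = 0.0691). The remaining pair, dimmer still, gave log2 changes of 0.01 ± 0.15 and -0.07 ± 0.19 (SE), with overlapping groups. The name ending _x_at marks a probe set of which some probes may bind other transcripts, so a share of these signals may not come from cirbp.S. Whether cirbp.L adds to them was not tested.

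In bulk tissue, fewer cells of a type and less RNA per cell cannot be told apart, and markers of tissue types moved with the groups beside the changes given here. Each marker was read by its brightest probe set. Of 14 tested organizer markers, 4 were called lower and 0 higher (28.6% called, beside 6.62% of all tested probe sets). Their summed signal was 16290 to 17220 on the apcdd1 MO arrays and 18530 to 21610 on the control MO arrays. Of 9 tested ventral markers 3 were called higher and 0 lower (33.3% called), with sums of 4376 to 4637 against 3613 to 3953. Of 7 tested markers of epidermal ectoderm 3 were called higher and 0 lower (42.9% called), with sums of 2075 to 2181 against 1321 to 1589. The gap between these epidermal sums rests mainly on foxi1.L, at 718 ± 30.5 in apcdd1 MO and 54.2 ± 5.65 in control MO embryos (SD, n = 3). Of 12 endoderm markers 1 was called lower (8.33%), and the sums overlapped at 11610 to 13340 against 11980 to 13210. Another of the 12, gata4.S, was called lower on a dimmer probe set alone (limma adjusted p = 0.0339). Among the organizer markers, a probe set of admp.S other than its brightest was called lower too (limma adjusted p = 0.0216). No marker in these lists was at 0, the lowest mean signal being 10.2. The part of tissue make-up, of the gapdh and actin ratios, of the hybridization controls, of the late lip formation and of the dye handling in the changes of splicing genes was not tested.

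hnRNP genes encode abundant proteins that coat new transcripts. Of 39 tested probe sets in 22 genes, 2 were called lower, 0 were called higher and 37 were not called. The called share was 5.13%, beside 6.62% of all tested probe sets. Both calls were in hnrnpu, whose protein, also known as scaffold attachment factor A, binds RNA and chromatin. For hnrnpu.L the dimmest of 3 probe sets (Xl2.23438.1.S3_at) had signals of 114, 132 and 119 on the apcdd1 MO arrays against 292, 333 and 367 on the control MO arrays. All depleted arrays lay far below all control arrays, with a 2.71-fold lower level (log2 change -1.44 ± 0.10 SE, limma adjusted p = 4.88e-05). The brightest one (Xl2.23438.1.S2_at) read 1720, 1897 and 1815 in apcdd1 MO embryos against 2000, 2223 and 2105 in control MO embryos. It too was lower without overlap, by less, and missed the threshold (log2 change -0.22 ± 0.06 SE, limma adjusted p = 0.0628). The third (Xl2.23438.1.S1_at) had 1534, 1392 and 1369 against 1789, 1878 and 1341, where control MO 3 lay under all depleted arrays (log2 change -0.21 ± 0.12 SE, limma adjusted p = 0.413).

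The homeolog hnrnpu.S had signals of 1358, 1417 and 1443 on the apcdd1 MO arrays against 1560, 1742 and 1728 on the control MO arrays. Every depleted array lay below (log2 change -0.25 ± 0.06 SE, limma adjusted p = 0.0372). This call was lost in 7 of the 15 alternative settings, among them 5 of the 6 in which 1 array was left out, with adjusted p up to 0.164 without control MO 2.

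Outside hnrnpu, 35 probe sets of 20 hnRNP genes were tested and limma called 0 of them, with 3 at an unadjusted p under 0.05. A negative log2 change was found in 25 of the 35 (71.4%), beside 49.9% of all tested probe sets, and their median was -0.05. The probe sets are not independent, since several read the same gene or its homeolog, and no test was made of this count. In 7 of the 35 (20.0%) all depleted arrays lay below all control arrays, beside 12.8% of all tested probe sets, and in 0 all lay above. An example is hnrnpa1.L, encoding an hnRNP that often promotes exon skipping. Its brightest probe set (Xl2.22082.4.A1_x_at) had 4081, 3859 and 3880 in apcdd1 MO embryos against 4241, 4361 and 4520 in control MO embryos (log2 change -0.15 ± 0.05 SE, limma adjusted p = 0.0916). Another _x_at probe set of the gene also lay below, at -0.14 ± 0.06 (SE), and both may bind other transcripts. The third, Xl2.22082.1.S1_a_at, of similar brightness, overlapped (log2 change -0.03 ± 0.05 SE, limma adjusted p = 0.86). Both homeologs of hnrnph1, which binds runs of G, gave negative values too, with log2 changes of -0.13 ± 0.06 for hnrnph1.L and -0.16 ± 0.07 for hnrnph1.S (SE). The brightest hnRNP genes did not share this sign: hnrnpa1.S had 4826, 5151 and 4860 against 4501, 4850 and 5193 (log2 change 0.03 ± 0.06 SE), and hnrnpa0.L had 4402, 4632 and 4433 against 3911, 4145 and 4564 (0.10 ± 0.06), both with overlapping groups. The count of negative values was 23 after quantile normalization, 26 after median centring of the arrays and 22 without apcdd1 MO 1.

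**Figure D2:**
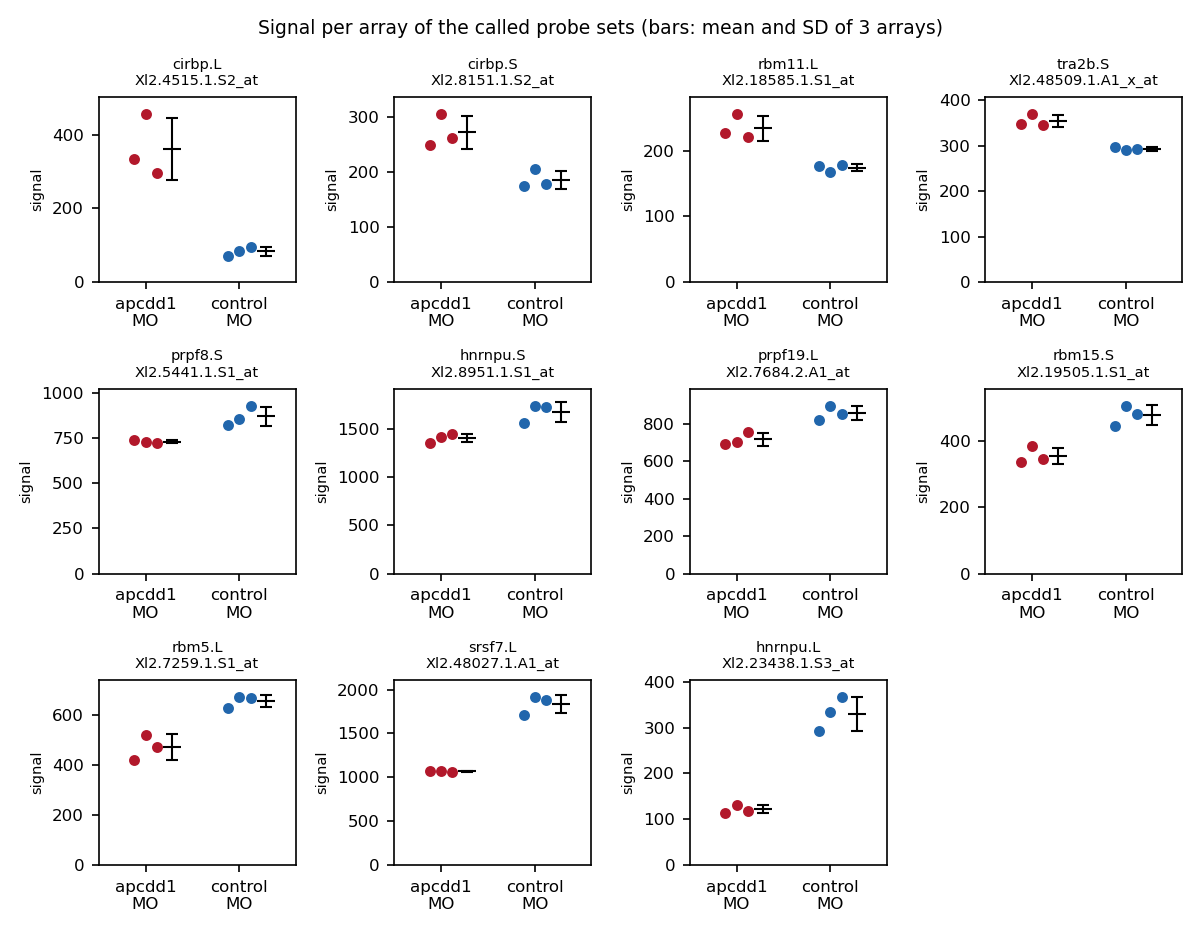
Deposited signal (linear scale from 0, vertical axis) of the 11 called member probe sets on the 3 apcdd1 MO arrays (left in each panel) and the 3 control MO arrays (right), with bars for mean and SD of 3 arrays. In every panel the groups do not overlap. The panels of cirbp.L, hnrnpu.L and srsf7.L show the widest gaps, and those of prpf8.S, prpf19.L and hnrnpu.S the narrowest on the lower side.

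SR proteins and their relatives TRA2A and TRA2B bind exonic enhancers. Of 29 tested probe sets in 18 genes, 1 was called lower, 1 higher and 27 were not called, and the median log2 change was 0.02. The called share was 6.9%, near the 6.62% of all tested probe sets. srsf7.L, encoding an SR protein that also takes part in mRNA export, had signals of 1072, 1071 and 1057 on the apcdd1 MO arrays against 1713, 1913 and 1876 on the control MO arrays. The depleted arrays lay within 1.01-fold of each other and far below the control arrays, at a 1.72-fold lower level (log2 change -0.78 ± 0.06 SE, limma adjusted p = 6.39e-05). Its homeolog srsf7.S was read by 2 bright probe sets, both with overlapping groups. The brighter had 5831, 5943 and 5830 in apcdd1 MO embryos against 5612, 5869 and 6108 in control MO embryos (log2 change 0.00, 95% interval -0.09 to 0.10), and the other gave 0.04 with an interval from -0.10 to 0.18.

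tra2b.S was called higher on Xl2.48509.1.A1_x_at, which had 347, 369 and 346 in apcdd1 MO embryos against 298, 290 and 292 in control MO embryos. All depleted arrays lay above (log2 change 0.27 ± 0.07 SE, limma adjusted p = 0.0371), though some probes of an _x_at probe set may bind other transcripts. The call ended in 9 of the 15 alternative settings, among them all 6 in which 1 array was left out, with adjusted p up to 0.162 without control MO 2. Its brighter probe set had 1133, 1094 and 1020 against 1023, 1034 and 1042, with overlap (log2 change 0.07 ± 0.06 SE, limma adjusted p = 0.619).

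The brightest SR genes, srsf2.L and srsf5.S, were not called. srsf2.L had 9972, 10490 and 10070 on the apcdd1 MO arrays against 9515, 10020 and 9553 on the control MO arrays (log2 change 0.07 ± 0.04 SE), and srsf5.S had 8935, 8491 and 8192 against 7989, 8357 and 9135 (0.01 ± 0.05). Among uncalled SR probe sets, srsf9.S lay above in all depleted arrays (2953, 2632 and 2802 against 2592, 2624 and 2630), as did both probe sets of srsf10.S, with log2 changes of 0.10 and 0.22. On the class as a whole, 5 probe sets had all depleted arrays above and 2 had all below. Together these were 24.1% of the class, near the 24.7% of all tested probe sets, of which 11.9% lay above and 12.8% below.

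Genes of the spliceosome's core snRNPs showed little movement. All 17 tested probe sets of snrp genes, 11 genes in all, were uncalled, 0 had an unadjusted p under 0.05, and every 95% interval lay inside a 1.25-fold change, from -0.20 to 0.28 on the log2 scale. The brightest was snrpb.S, encoding an Sm protein of the ring on spliceosomal RNAs, with 5477, 5654 and 5297 in apcdd1 MO embryos against 5369, 5272 and 5410 in control MO embryos (log2 change 0.03 ± 0.04 SE). snrpa.S, encoding a protein of the snRNP that recognises the 5' splice site, had 4907, 4544 and 4523 against 4521, 4621 and 4464 (0.04 ± 0.05). The signals overlapped in both genes. The class median was 0.03, and 3 of 17 log2 changes were negative.

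SF3A and SF3B proteins hold the branch point, and U2AF recognises the 3' splice site. None of 17 SF3 probe sets in 11 genes was called by limma, and 1 had an unadjusted p under 0.05. That one was sf3b4.L, among the brightest 2 of the class, with 1859, 1755 and 1722 in apcdd1 MO embryos against 1454, 1571 and 1732 in control MO embryos (log2 change 0.17 ± 0.07 SE, limma adjusted p = 0.225). sf3b5.S, the brightest, had 1889, 2202 and 1845 against 1655, 1657 and 1922 (0.18 ± 0.08). Both overlapped. The 5 probe sets of u2af1.S and u2af2.S, the small and the large U2AF subunit, all gave positive log2 changes, from 0.04 to 0.12, with a median of 0.10 and every interval inside 1.25-fold. None was called, and 0 had an unadjusted p under 0.05. The brightest, of u2af2.S, had 1547, 1751 and 1624 in apcdd1 MO embryos against 1531, 1499 and 1633 in control MO embryos, and that of u2af1.S had 1250, 1218 and 1142 against 1066, 1091 and 1182.

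Of 17 tested prpf probe sets in 10 genes, 2 were called lower and 0 higher, with a median log2 change of -0.02. The called share was 11.8%, beside 6.62% of all tested probe sets, and rests on these 2 probe sets. prpf8.S, whose protein lies at the catalytic centre of the spliceosome, had signals of 742, 732 and 724 on the apcdd1 MO arrays against 826, 859 and 932 on the control MO arrays. Every depleted array lay below (log2 change -0.25 ± 0.06 SE, limma adjusted p = 0.0461). prpf19.L, encoding a ubiquitin ligase that activates the spliceosome, was called lower on Xl2.7684.2.A1_at, with 693, 703 and 759 against 823, 898 and 852 (log2 change -0.26 ± 0.06 SE, limma adjusted p = 0.0442). Its brighter probe set had 1222, 1248 and 1241 in apcdd1 MO embryos against 1145, 1306 and 1318 in control MO embryos, with overlap (log2 change -0.02 ± 0.07 SE). Both calls were near the threshold: that of prpf8.S ended in 10 of the 15 alternative settings, quantile normalization (limma adjusted p = 0.0505) and median centring (0.052) among them, and that of prpf19.L in 8. Each passed in only 1 of the 6 settings that left out an array, with adjusted p up to 0.164 for prpf8.S without apcdd1 MO 3 and up to 0.199 for prpf19.L without control MO 2. The brightest probe sets of the class, of prpf31.S and prpf38a.S, had log2 changes of 0.04 ± 0.07 and 0.02 ± 0.05 (SE) and overlapping groups. A dimmer probe set of prpf38a.S (Xl2.54468.1.S1_at) had 456, 390 and 438 in apcdd1 MO embryos against 502, 498 and 528 in control MO embryos. It was lower without overlap but not called (log2 change -0.253 ± 0.075 SE, limma adjusted p = 0.0832). Its difference from the brightest was not called either (limma adjusted p = 0.0803).

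PTBP1 binds pyrimidine-rich RNA and represses exons, and RBFOX2 binds beside alternative exons. None of their 5 tested probe sets was called by limma, and 2 had an unadjusted p under 0.05. ptbp1.S had 406, 393 and 428 in apcdd1 MO embryos against 463, 581 and 497 in control MO embryos, lower without overlap (log2 change -0.32 ± 0.09 SE, limma adjusted p = 0.064). The 2 probe sets of ptbp1.L overlapped, with -0.02 ± 0.09 and -0.17 ± 0.10 (SE). rbfox2.L was dim, with 36.3, 40.2 and 60.6 in apcdd1 MO embryos against 34.0, 31.9 and 34.8 in control MO embryos, where apcdd1 MO 3 set most of the difference (log2 change 0.41 ± 0.17 SE, limma adjusted p = 0.239).

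Among the remaining rbm genes, a name given to many unrelated proteins with RNA-binding domains, 43 probe sets in 32 genes were tested. Of these 1 was called higher and 2 were called lower (6.98% called, near the 6.62% of all tested probe sets). The median log2 change was -0.03, and 27 values were negative (62.8%, beside 49.9% of all tested probe sets). rbm11.L, whose human counterpart is a tissue-restricted splicing regulator, had 226, 256 and 220 on the apcdd1 MO arrays against 176, 168 and 178 on the control MO arrays. All depleted arrays lay above, at a 1.35-fold higher level (log2 change 0.43 ± 0.08 SE, limma adjusted p = 0.0115). The call ended without control MO 2 (adjusted p = 0.0719 in limma). The single probe set of rbm11.S was dim, from 5.58 to 7.16 over all 6 arrays, and was not tested.

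rbm5.L, whose human counterpart regulates the splicing of apoptosis genes, had 422, 523 and 474 in apcdd1 MO embryos against 631, 673 and 669 in control MO embryos. Every depleted array lay below, at a 1.40-fold lower level (log2 change -0.48 ± 0.08 SE, limma adjusted p = 0.00784). The call held in all 15 alternative settings, with limma adjusted p up to 0.0482. The other probe set of rbm5.L (Xl2.7259.1.A1_at, mean signal 19.8) was left out as dim. When all probe sets were fitted it overlapped and was not called (log2 change -0.09 ± 0.13 SE, limma adjusted p = 0.823). rbm15.S, whose mammalian counterpart guides the methylation of adenosines in RNA, was called lower on the brightest of its 3 probe sets. It had 337, 383 and 345 against 444, 506 and 481 (log2 change -0.43 ± 0.08 SE, limma adjusted p = 0.0102), and its call ended without apcdd1 MO 3 (adjusted p = 0.0582 in limma) and without control MO 2 (0.0657). The dimmer pair overlapped, with log2 changes of -0.10 ± 0.11 and -0.07 ± 0.12 (SE). The brightest rbm genes, rbm8a.L of the exon junction complex and rbmx.S, also called hnRNP G, had log2 changes of -0.03 ± 0.05 and 0.01 ± 0.05 (SE) and overlapping groups.

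Agreement between probe sets of one gene was tested directly, as the difference in log2 change between each probe set and the brightest one of the same gene. The 42 genes with several tested probe sets gave 67 such pairs, of which 5 in 5 genes differed (7.46%), beside 3.19% of the 2568 pairs on the whole array. Without any 1 array other than control MO 3 the count was 3, and without control MO 3 it was 4. In none of the 42 genes were all tested probe sets called, and in 6 a called one stood beside an uncalled one. No share over the array's genes is given beside these gene counts, so no excess among members can be read from them. hnrnpu.L had the lowest p, with Xl2.23438.1.S3_at 1.22 ± 0.08 (SE) further down on the log2 scale than Xl2.23438.1.S2_at (limma adjusted p = 0.000192). The dimmer cirbp.L probe set stood 2.18 ± 0.17 above the bright one, and Xl2.8151.1.S2_at of cirbp.S stood 0.77 ± 0.08 above its brightest (limma adjusted p = 0.000704 for each). In both cirbp genes the sign was opposite between these probe sets. These 3 differences held in all 15 alternative settings.

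The other called pairs were smaller. In tra2a.L, Xl2.7821.1.S2_at had 1329, 1507 and 1424 in apcdd1 MO embryos against 1140, 1217 and 1318 in control MO embryos, all depleted arrays above. Its Xl2.7821.1.S1_at, of similar brightness, had 1169, 1333 and 1268 against 1309, 1305 and 1344, with overlap. The difference was -0.29 ± 0.06 (SE, limma adjusted p = 0.0396), while neither probe set was called alone (limma adjusted p = 0.125 and 0.598). In srsf1.L, encoding the founding SR protein, Xl2.2144.1.S2_at had 301, 331 and 349 against 264, 301 and 274, with overlap. The brightest probe set, Xl2.39705.1.S1_s_at, had 6641, 7255 and 6953 against 6895, 7472 and 7428, also with overlap. Its _s_at ending marks probes that may bind other transcripts too. The difference between these probe sets was 0.29 ± 0.06 (SE, limma adjusted p = 0.0476). The third, Xl2.2144.1.S1_at, overlapped at 0.02 ± 0.08 (SE), and its difference from the brightest was not called (limma adjusted p = 0.541). These last calls depended on the arrays: that of tra2a.L remained without control MO 3 only and that of srsf1.L ended without any 1 array, with adjusted p up to 0.164 and 0.185.

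For 3 genes with a called probe set the pair difference was itself not called, so their probe sets cannot be said to differ. The limma adjusted p was 0.123 for prpf19.L, 0.189 for tra2b.S, and 0.172 and 0.298 for rbm15.S. Over all 42 genes the widest gap between log2 changes of one gene's probe sets had a median of 0.14, beside 0.12 for the 1753 such genes of the array. The sign was shared by all probe sets in 24 of the 42 (57.1%), beside 58.1%. Opposite signs occurred in 20 of the 67 pairs.

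**Figure D3:**
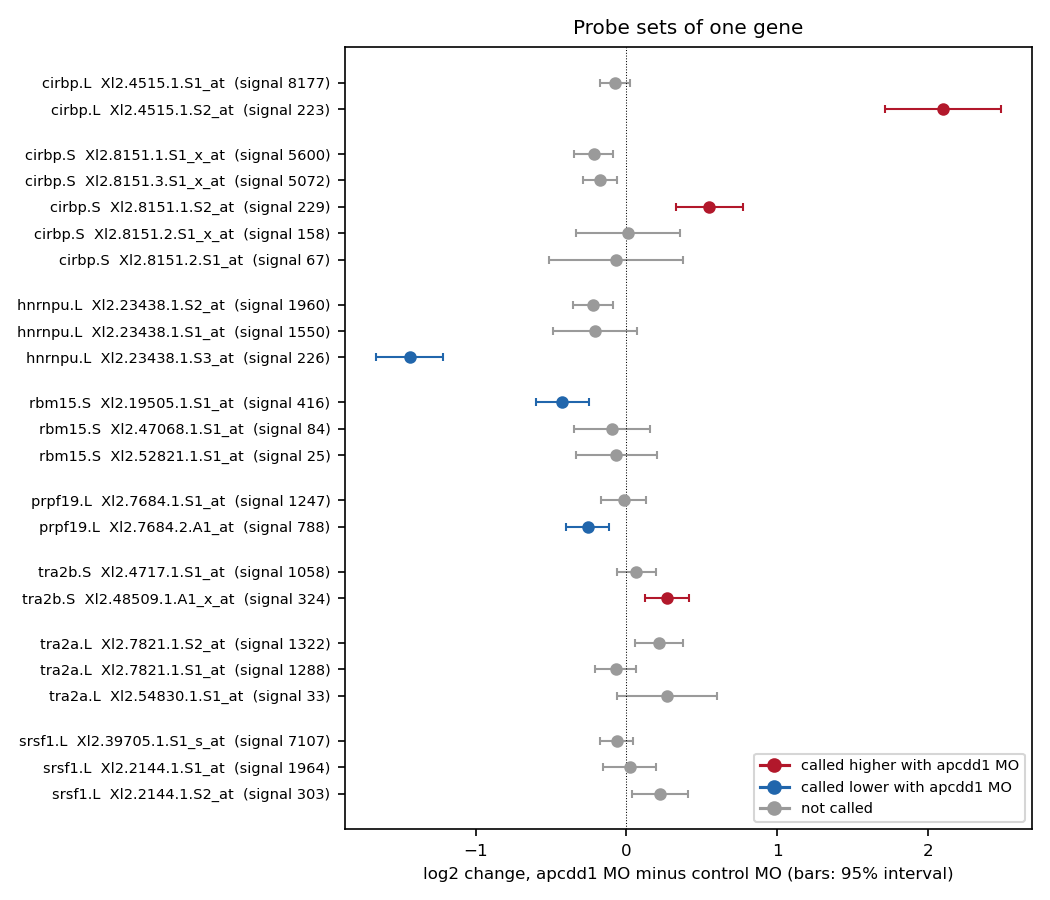
Log2 change (apcdd1 MO minus control MO, horizontal axis) with its 95% interval for every tested probe set of 8 genes, brightest first within a gene, with the mean signal over 6 arrays in brackets. Coloured points were called. In cirbp.L, cirbp.S and hnrnpu.L a probe set with a signal near 223, 229 and 226 stands apart from the bright ones, whose changes lie between -0.22 and -0.08.

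Homeologs were compared in the same way for the 27 gene names with a tested probe set on both, using the brightest probe set of each. In 3 pairs the change differed (11.1%), beside 12.6% of the 1385 pairs on the array. srsf7 differed most, with the L homeolog 0.78 ± 0.05 (SE) further down on the log2 scale than the S homeolog (limma adjusted p = 5.25e-06), and this held in all 15 alternative settings. It compares Xl2.48027.1.A1_at, the only probe set of srsf7.L, with Xl2.24806.1.S2_a_at of srsf7.S. Where these lie along the transcripts is not known, and whether they read matching ends was not tested. For rbm5 the L homeolog was 0.29 ± 0.08 further down, with rbm5.S at 457, 524 and 440 in apcdd1 MO embryos against 491, 585 and 549 in control MO embryos (limma adjusted p = 0.0335). rbm5.S itself overlapped and was not called (log2 change -0.19 ± 0.09 SE, limma adjusted p = 0.282). For rbm24, encoding an RNA-binding protein of muscle and heart, the difference was 0.34 ± 0.09 (SE, limma adjusted p = 0.0304). rbm24.S had 160, 152 and 155 against 218, 189 and 162, and rbm24.L had 283, 257 and 268 against 274, 258 and 239. These rbm24.L values are of Xl2.662.1.S2_x_at, some probes of which may bind other transcripts. The dimmer rbm24.L probe set (Xl2.662.1.S1_at, mean signal 25.3) overlapped with a negative log2 change, as in rbm24.S (-0.155 ± 0.119 SE, limma adjusted p = 0.549). Neither rbm24 homeolog was called alone. The rbm5 and rbm24 differences ended under several settings, and without control MO 2 only that of srsf7 was called.

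For hnrnpu the brightest probe sets gave log2 changes of -0.22 for the L homeolog, which was not called, and -0.25 for the S homeolog, with a difference of 0.03 (95% interval -0.09 to 0.16). The differences for hnrnpa1 (limma adjusted p = 0.0511) and cirbp (0.0568) just missed the threshold. Of the 27 pairs 17 had the same sign (63.0%).

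**Figure D4:**
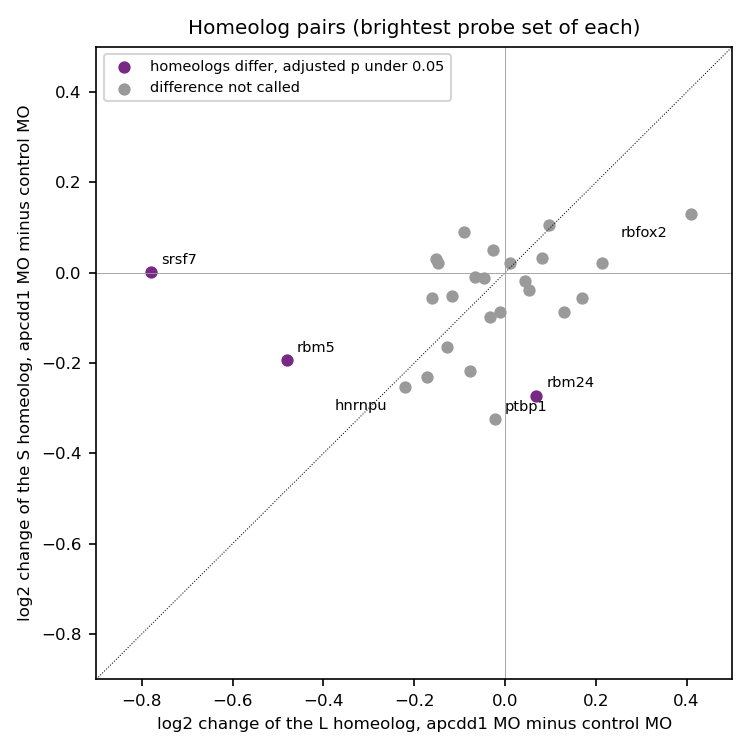
Log2 change (apcdd1 MO minus control MO) of the S homeolog (vertical axis) against that of the L homeolog (horizontal axis) for 27 gene names, each by its brightest probe set. Purple points differ between homeologs at an adjusted p under 0.05, and the dotted diagonal marks equal change. srsf7 lies at -0.78 for L and 0.00 for S, while hnrnpu lies close to the diagonal at -0.22 and -0.25.

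Some members varied more within the control group than between the groups. In 5 of the 179 (2.79%) the highest control MO array was over 1.5-fold above the lowest, and in 3 (1.68%) this was so among apcdd1 MO arrays, beside 5.11% and 2.1% of all tested probe sets. sf3b1.S, encoding the SF3 subunit at the branch point, had 2 such probe sets out of 4. Xl2.29541.1.A1_s_at read 370, 332 and 399 in apcdd1 MO embryos against 656, 394 and 240 in control MO embryos, a 2.73-fold range among controls, and Xl2.2599.2.S1_a_at had a 2.67-fold range. The brightest probe set of the same gene read 1279, 1483 and 1450 against 1505, 1583 and 1409, within 1.12-fold among controls. One probe set each of rbm28.L, with 150, 130 and 152 against 202, 147 and 83.3, and of rbm25.S, with 816, 839 and 828 against 988, 795 and 525, showed the same order of control arrays. Other probe sets of these genes did not, such as the brightest of rbm25.S with 909, 783 and 793 against 736, 817 and 808. In these 4 probe sets control MO 1 was highest and control MO 3 lowest, as in 751 of the 995 probe sets of the array that ranged over 1.5-fold among controls. The other such member, rbm12.L on the dim Xl2.21152.1.S1_at, had the opposite order, with 48.4, 61.0 and 59.4 in apcdd1 MO embryos against 44.96, 62.7 and 71.0 in control MO embryos, as in 92 of the 995. The 95% interval of sf3b1.S on Xl2.29541.1.A1_s_at ran from -0.93 to 0.70, so a change of that size was not detectable there.

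**Figure D5:**
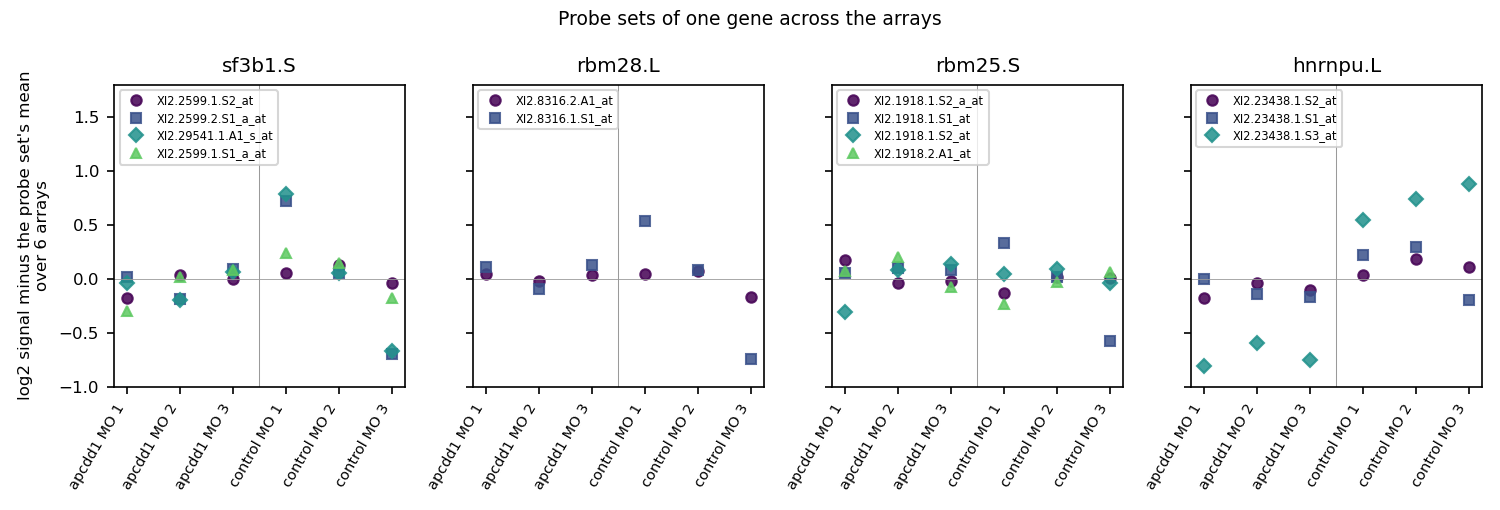
Log2 signal on each array minus the probe set's mean over 6 arrays (vertical axis), for every tested probe set of 4 genes, with the apcdd1 MO arrays left and the control MO arrays right of the grey line. One or more probe sets of sf3b1.S, rbm28.L and rbm25.S are high on control MO 1 and low on control MO 3 while others of the same gene stay near 0, and in hnrnpu.L the lowest-signal probe set separates the groups.

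By brightness, calls among members were few at the top. Of 84 member probe sets with a mean signal over 1000, 2 were called (2.38%), beside 6.73% of all tested probe sets that bright. Between 300 and 1000 there were 5 of 47 (10.6%, beside 6.98%), and between 100 and 300 there were 4 of 30 (13.3%, beside 7.37%). Under 100 limma called 0 of 18 (beside 5.70%). An unadjusted p under 0.05 was found in 10 of the 84, 9 of the 47, 10 of the 30 and 2 of the 18.

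Other genes of splicing and of related RNA proteins, outside the name rule, were taken from 8 lists of the LSm, Prp19 complex, helicase, exon junction, SR kinase, SMN, snrnp and other regulator genes, each gene by its brightest probe set. Of 118 tested genes out of 128 found, 2 were called higher and 3 lower, with a median log2 change of 0.00. The called share was 4.24%, beside 6.62% of all tested probe sets. The largest change was in isy1.L, encoding a protein of the catalytic spliceosome, with 96.5, 104 and 122 in apcdd1 MO embryos against 199, 209 and 224 in control MO embryos. All depleted arrays lay below, at a 1.97-fold lower level (log2 change -0.98 ± 0.10 SE, limma adjusted p = 0.000391). The second among those called lower was lsm4.S, of the LSm ring, with 122, 116 and 111 against 163, 150 and 140 (limma adjusted p = 0.03). snrnp27.S, of the tri-snRNP, had 4194, 4145 and 3982 against 4822, 4581 and 4606 on Xl2.5847.2.A1_s_at (log2 change -0.18 ± 0.04 SE, limma adjusted p = 0.0363). This was 1 of its 2 tested probe sets, and as an _s_at probe set it may bind other transcripts too.

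The genes called higher were lsm14b.L and ddx39b.L. lsm14b.L, encoding a protein of stored mRNA particles, had 910, 848 and 867 on the apcdd1 MO arrays against 692, 660 and 717 on the control MO arrays, without overlap (log2 change 0.34 ± 0.06 SE, limma adjusted p = 0.00884). ddx39b.L, a helicase gene of spliceosome assembly and mRNA export, had 266, 294 and 296 against 212, 227 and 193 (log2 change 0.44 ± 0.08 SE, limma adjusted p = 0.0123). In the exon junction, SR kinase, SMN and other regulator lists 0 of 60 tested genes were called by limma on the brightest probe set, and 9 had an unadjusted p under 0.05 there.

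On a dimmer probe set, however, 3 of these 60 genes were called, which brings the genes with any called probe set to 8 of the 118. The share of genes with any called probe set was not counted over the array, so this count has no background beside it. khdrbs1.S, encoding the RNA-binding protein SAM68, had 733, 818 and 776 on Xl2.25540.1.S2_at in apcdd1 MO embryos against 1167, 1146 and 1056 in control MO embryos, without overlap (log2 change -0.53 ± 0.07 SE, limma adjusted p = 0.00131). Its brightest probe set gave -0.17 ± 0.06 (limma adjusted p = 0.129). gemin2.S, of the SMN complex that assembles snRNPs, was called higher on Xl2.3305.1.S1_s_at, with 1211, 1045 and 1133 against 864, 902 and 968 (log2 change 0.31 ± 0.07 SE, limma adjusted p = 0.032). srrm1.L, encoding an SR-related coactivator of splicing, was called higher on Xl2.29360.1.S1_a_at, with 497, 458 and 523 against 424, 385 and 351 (log2 change 0.35 ± 0.09 SE, limma adjusted p = 0.0392). The brightest probe sets of both these genes overlapped between the groups, with log2 changes of 0.07 and -0.02. The _s_at probe set called for gemin2.S may bind other transcripts too. How the calls of the list genes held in the alternative settings is not given here.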

How the data were processed

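The values analysed are the deposited signal intensities of 6 Affymetrix arrays, on a linear scale. Per the submitters' processing notes they were made with MAS5, with no version; their scaling is not given in the sources used here, and no detection calls or scan dates were used. Gene symbols are those of the platform annotation, and the gene numbers of all 194 members were found in RefSeq's table for Xenopus laevis. Of the array's 32634 probe sets, 160 controls were set apart. Signals were log2-transformed (floor 1, which moved 0 values) and not rescaled. Of the probe sets, 19484 were kept, those whose mean log2 signal reached the 40th percentile (a signal of 22.3). The comparison was made by linear models in limma 3.58.1 under R 4.3.3, with robust, intensity-trended eBayes moderation and two-sided tests. P-values were adjusted by Benjamini-Hochberg over all tested probe sets, at a threshold of 0.05. Differences between probe sets and between homeologs were fitted on per-array log2 differences over all such pairs of the array. The scripts were tested on simulated data. The number of arrays limits the precision, since an exact permutation of 3 against 3 arrays goes no lower than p = 0.1. The named genes are all called members with their other probe sets and homeologs, genes whose pairs differed, the 2 brightest members per class, called members of the other lists, and apcdd1; any other was chosen after its values were seen. Members and lists were chosen with earlier results of these data known. Of 167 list entries, 129 matched by symbol, 7 by synonym and 31 not. Alternatives were 2 scalings, 2 offsets, 2 filters, a replicate block, another variance model, array weights and leaving out each array.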

Additional observations from a re-analysis of the deposited data

How the results depend on the processing

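No called member changed sign under the 15 alternatives, and no result reversed. The calls of cirbp.L, cirbp.S, hnrnpu.L, srsf7.L and rbm5.L, the pair differences of cirbp.L, cirbp.S and hnrnpu.L, and the srsf7 homeolog difference held under all 15. Array weights, which gave control MO 2 a weight of 8.24 and the other arrays 0.437 to 1.43, raised the counts to 2046 higher and 2403 lower on the array, 9 higher and 30 lower among members, 216 probe set pairs (10 in members) and 330 homeolog pairs (8 in members). The called share was then 21.8% of members, beside 22.8% of all tested probe sets. The deviations of same-numbered arrays from their group correlated at 0.053, 0.021 and -0.268, and those of other-numbered arrays at -0.237 to 0.211. With so few arrays these values cannot show whether same-numbered arrays shared a clutch or batch, so pairing was not settled. With the replicate block, 3 members were higher and 4 lower (3.91% called, beside 5.65% of all tested probe sets), and 3 member pairs differed. eBayes without trend and robust gave 3 members higher, 4 lower and 3 member pairs. The called share there was 3.91% of members, beside 5.78% of all tested probe sets. The filter at the 60th percentile gave 5 member homeolog pairs. Shares of pairs over the array are not given for these settings. Leaving out single arrays gave 305 to 610 higher and 364 to 820 lower on the array, 2 to 3 higher and 3 to 9 lower members, 39 to 87 pairs (3 to 4 in members) and 76 to 183 homeolog pairs (1 to 4 in members). Except where an array was left out, the cause of these shifts was not tested. Probe sets near the filter's signal of 22.3 were not shown to be above background.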

Other observations

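The 4 probe sets set aside for carrying 2 symbols were all shared by transcripts of different genes, and limma called 0 of them, with 1 at an unadjusted p under 0.05. One of prpf type (Xl2.40681.1.S1_s_at) had signals of 792, 754 and 900 on the apcdd1 MO arrays against 1028, 641 and 432 on the control MO arrays, where control MO 1 was highest and control MO 3 lowest, the order given above for sf3b1.S.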
